A study of Mus musculus with 12 samples.

Results

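The mitochondrial genome is a small circular DNA, separate from the nuclear chromosomes, and its transcripts were taken here as every row of the deposited expression table placed on chrM. That rule found 33 of 32246 rows: 13 mRNAs, 18 transfer RNAs (tRNAs) and 2 ribosomal RNAs (rRNAs). They were measured by total RNA sequencing in mouse bone marrow-derived macrophages, differentiated over 7 days in 50 ng/mL of GM-CSF, a myeloid growth factor whose cultures are known to hold macrophages and dendritic-like cells. The study had 3 groups of 4 libraries: untreated cells, cells given PLG (plasminogen) exposed to EACA (a lysine analogue that binds plasminogen), called PLG+EACA, and cells given PLG exposed to EACA and RNases, called PLG+EACA+RNase. Treatment lasted 24 h. All groups shared the GM-CSF culture, and both treated groups shared PLG and EACA. No group received EACA without PLG or PLG without EACA, and no strain, sex or age is given in the labels used here. Since no label ties the libraries to separate animals or cultures, p-values here reflect the spread between these samples alone, and that spread may be technical.

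Mammalian mitochondrial DNA is transcribed from both strands into long precursors by the polymerase POLRMT. tRNAs lie between most of the other genes, and cutting them out at both ends frees the mRNAs and rRNAs. The mRNAs encode core subunits of respiratory complexes I, III and IV and of ATP synthase; the rRNAs and tRNAs serve the mitochondrial ribosome that translates them. By the strand of the annotation, 12 mRNAs, 11 tRNAs and both rRNAs had the sense of the heavy-strand transcript, while mt-Nd6 and 7 tRNAs had the opposite sense. Of the 37 chrM genes of GENCODE M21, 33 were in the table with identical coordinates, and the other 4 (mt-Tf, mt-Ts1, mt-Td and mt-Tk) were not analysed here. Coordinates are those of chrM in GRCm38, counted from 1.

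Nuclear chromosomes carry insertions of mitochondrial DNA, and reads from a stretch that is identical in both places cannot be assigned to either by sequence. The 3 pairs of lines that follow compare the first 60 bases of mitochondrial mRNAs with annotated nuclear pseudogenes, 5′ to 3′ in the sense of the gene, from GENCODE M21 transcripts; capitals mark bases that differ within a pair. They are shown because the first pair is identical, the second differs at 1 base (T3C) and the third at 2 bases (A24G and T48C), with positions counted from the first base of the mitochondrial mRNA. The windows are chrM:7013-7072 on the plus strand for mt-Co2, chrM:9459-9518 on the plus strand for mt-Nd3 and chrM:14011-14070 on the minus strand for mt-Nd6.
mt-Co2: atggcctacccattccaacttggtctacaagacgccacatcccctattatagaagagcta
Gm28661: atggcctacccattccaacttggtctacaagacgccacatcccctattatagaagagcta
mt-Nd3: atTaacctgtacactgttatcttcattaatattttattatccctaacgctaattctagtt
Gm28438: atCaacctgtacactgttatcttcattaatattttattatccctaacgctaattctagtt
mt-Nd6: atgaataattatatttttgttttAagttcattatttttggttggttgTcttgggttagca
Gm11408: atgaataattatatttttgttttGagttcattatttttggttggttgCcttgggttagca

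The next 4 lines give the whole gene sequence of the tRNAs whose levels differed between groups, with the anticodon in capitals where its loop could be found from pairing bases. mt-Tn (tRNA for asparagine, chrM:5089-5159, minus strand) and mt-Tp (proline, chrM:15356-15422, minus strand) are read from the strand opposite to mt-Tl2 (leucine, chrM:11671-11741, plus strand) and mt-Ts2 (serine, chrM:11613-11671, plus strand). The last 2 share the base at position 11671. mt-Ts2, which lacks the D arm of other tRNAs, is printed without capitals.
mt-Tn: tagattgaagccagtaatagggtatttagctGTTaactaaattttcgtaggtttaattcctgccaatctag
mt-Tp: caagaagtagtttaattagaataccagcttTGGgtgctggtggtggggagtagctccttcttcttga
mt-Tl2: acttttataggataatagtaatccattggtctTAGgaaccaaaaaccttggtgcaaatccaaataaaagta
mt-Ts2: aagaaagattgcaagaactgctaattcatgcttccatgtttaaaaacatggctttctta

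The 6 mRNAs of lowest level followed one another on the genome, and the mRNAs before and after them were listed at far higher levels. FPKM, the deposited unit, is a read count scaled by gene length and library size, so levels can be compared between genes per length. In untreated cells mt-Co1, the catalytic subunit of complex IV, had 2785 ± 147.1 FPKM (SD, n = 4), and its downstream neighbour mt-Co2, also a complex IV subunit, had 7.39 ± 0.928 FPKM. The ATP synthase subunits mt-Atp6 and mt-Atp8 had means of 4.3 and 0.232 FPKM, the complex IV subunit mt-Co3 had 4.78 FPKM, and the complex I subunits mt-Nd3 and mt-Nd4l had 1.93 and 0.513 FPKM. Beyond them mt-Nd4, another complex I subunit, had 138.1 ± 16.8 FPKM. The same 6 mRNAs were below every other mitochondrial mRNA in all 3 groups.

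**Figure D1:**
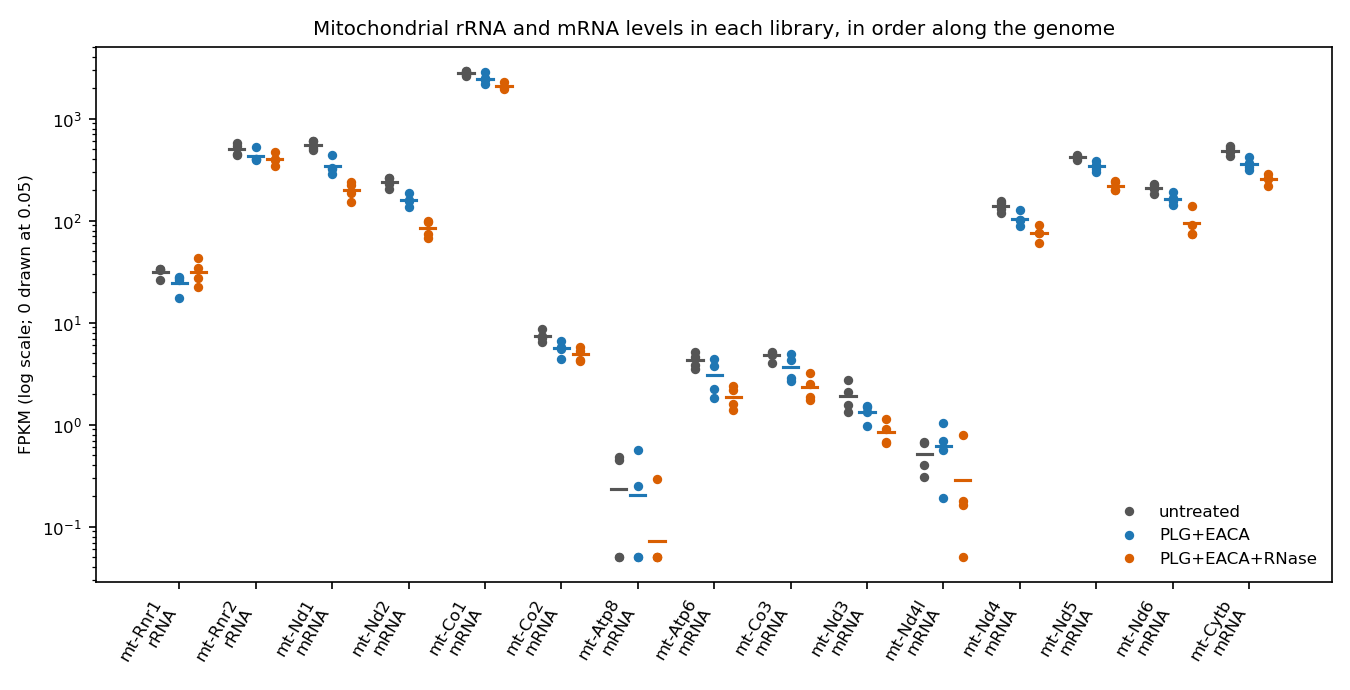
FPKM (log axis, with 0 drawn at 0.05) of the mitochondrial rRNAs and mRNAs in genome order; points are libraries and bars are group means (n = 4 per group). The mRNAs from mt-Co2 to mt-Nd4l have means of at most 7.39 FPKM in untreated cells, between mt-Co1 at 2785 FPKM and mt-Nd4 at 138.1 FPKM.

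These low levels coincided with sequence shared with chromosome 1. A run of 7 annotated pseudogenes at chr1:24611535-24616197 on the minus strand (GRCm38) matched chrM:6390-11042 in the same order, with gaps of equal length except for 74 against 73 bases between the mt-Nd3 and mt-Nd4l copies. There was 100% identity to mt-Co2 over 681 bases (Gm28661), to mt-Atp6 over 678 bases (Gm10925), to mt-Co3 over 783 bases (Gm28437), to mt-Nd4l over 294 bases (Gm10222) and to the first 876 bases of mt-Nd4 (Gm28439). Gm29216 and Gm28438 matched mt-Co1 over 483 bases and mt-Nd3 over 345 bases with 1 mismatch each. mt-Atp8 has no annotated pseudogene there, but its end overlaps the Gm10925 match and the rest lies in the gap before it, which is 233 bases long on both chromosomes.

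Counted as stretches of 50 bases that also occur in a transcript outside chrM, shared sequence made up 100% of mt-Co2, 99.9% of mt-Co3, 99.5% of mt-Atp6, 98.8% of mt-Nd4l and 98% of mt-Nd3. It made up 62.2% of mt-Nd4 and 51.1% of mt-Co1. The share was 8.19% for mt-Nd2, 7.61% for mt-Nd5 and 1.04% for mt-Rnr2, and no such stretch was found in mt-Nd1, mt-Nd6, mt-Cytb, mt-Rnr1 or the tRNAs. The chromosome 1 pseudogenes were themselves listed at low levels, from 0.316 FPKM for Gm28438 to 4.42 FPKM for Gm28661 on average in untreated cells. How reads with several matches were counted is not stated in the sources used here, and the part of shared sequence in the low values was not tested. The levels of mt-Co2, mt-Co3, mt-Atp6, mt-Nd3, mt-Nd4l and mt-Atp8 are therefore uncertain, and those of mt-Co1 and mt-Nd4 are uncertain for the shared part of the gene.

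**Figure D2:**
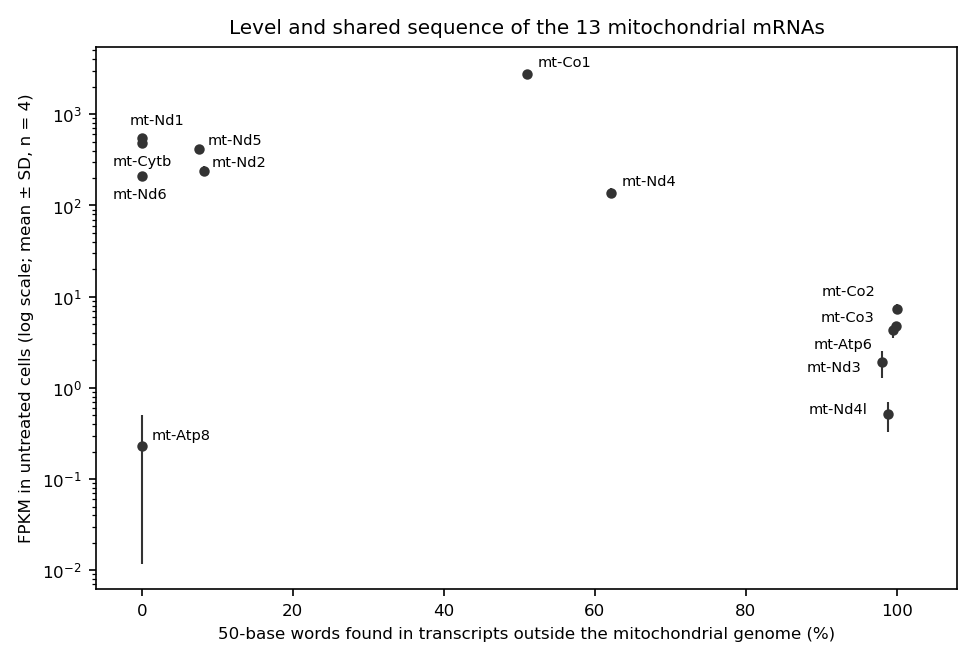
Mean FPKM (± SD, n = 4) of each of the 13 mitochondrial mRNAs in untreated cells (log axis) against the percentage of its stretches of 50 bases that also occur in an annotated transcript outside chrM. The mRNAs with 98% to 100% shared sequence sit at 7.39 FPKM or lower, as does mt-Atp8 with no shared stretch of that length, and mt-Co1 with 51.1% is the highest of all at 2785 FPKM.

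Leaving aside mt-Atp8, among the mRNAs and rRNAs with little or no shared sequence the listed levels in untreated cells ran from mt-Nd1 (553.2 ± 61 FPKM) through mt-Rnr2, mt-Cytb, mt-Nd5, mt-Nd2 and mt-Nd6 to mt-Rnr1. The ranges of neighbours in that order overlapped over the 4 libraries, except for mt-Nd5 above mt-Nd2 and mt-Nd6 above mt-Rnr1. Within each library the order held for all neighbours but mt-Rnr2 and mt-Cytb, which changed places in replicate 2 (447 and 467.9 FPKM). Removal of rRNA before sequencing would lower both rRNAs, and its part in these values was not tested. The rRNA values and their ratios are therefore not taken as levels in the cells. mt-Tp was the highest tRNA with 180 ± 9.88 FPKM and held 79.6% ± 3.28 of all mitochondrial tRNA reads in untreated cells. It held 78.2% ± 3.53 in PLG+EACA and 84.2% ± 3.9 in PLG+EACA+RNase, and the groups overlapped. The table gives 1 value per gene, so reads of a mature tRNA and of a precursor that spans it cannot be told apart.

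The mitochondrial share of all counted reads was highest in untreated cells and lowest in PLG+EACA+RNase. Untreated libraries had 0.808%, 0.722%, 0.796% and 0.695% of reads on chrM, PLG+EACA libraries 0.616%, 0.554%, 0.618% and 0.735%, and PLG+EACA+RNase libraries 0.562%, 0.467%, 0.488% and 0.496%. The means were 0.755% ± 0.0553, 0.631% ± 0.0758 and 0.503% ± 0.041 (SD, n = 4 each). All PLG+EACA+RNase libraries lay below all untreated libraries; PLG+EACA overlapped untreated through replicate 4 and overlapped PLG+EACA+RNase through replicate 2. In bulk RNA, fewer cells of a type, fewer mitochondria per cell and less RNA per mitochondrion cannot be told apart.

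Split by class, the mRNA and tRNA shares separated the groups further than the rRNA share did. mRNA reads made up 0.671% ± 0.0444, 0.559% ± 0.0655 and 0.436% ± 0.0353 of reads in the 3 groups in the same order, and PLG+EACA+RNase overlapped neither other group. rRNA reads made up 0.0822% ± 0.0112, 0.0707% ± 0.0108 and 0.0664% ± 0.00787, and all 3 groups overlapped. tRNA reads, 79 to 342 per library, made up 0.00152% ± 5.11e-05, 0.00106% ± 0.000222 and 0.000662% ± 0.00018, with untreated cells above both treated groups in every library. Per 1000 mRNA reads there were 2.26 ± 0.0807 tRNA reads in untreated cells, 1.89 ± 0.168 in PLG+EACA and 1.5 ± 0.28 in PLG+EACA+RNase.

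**Figure D3:**
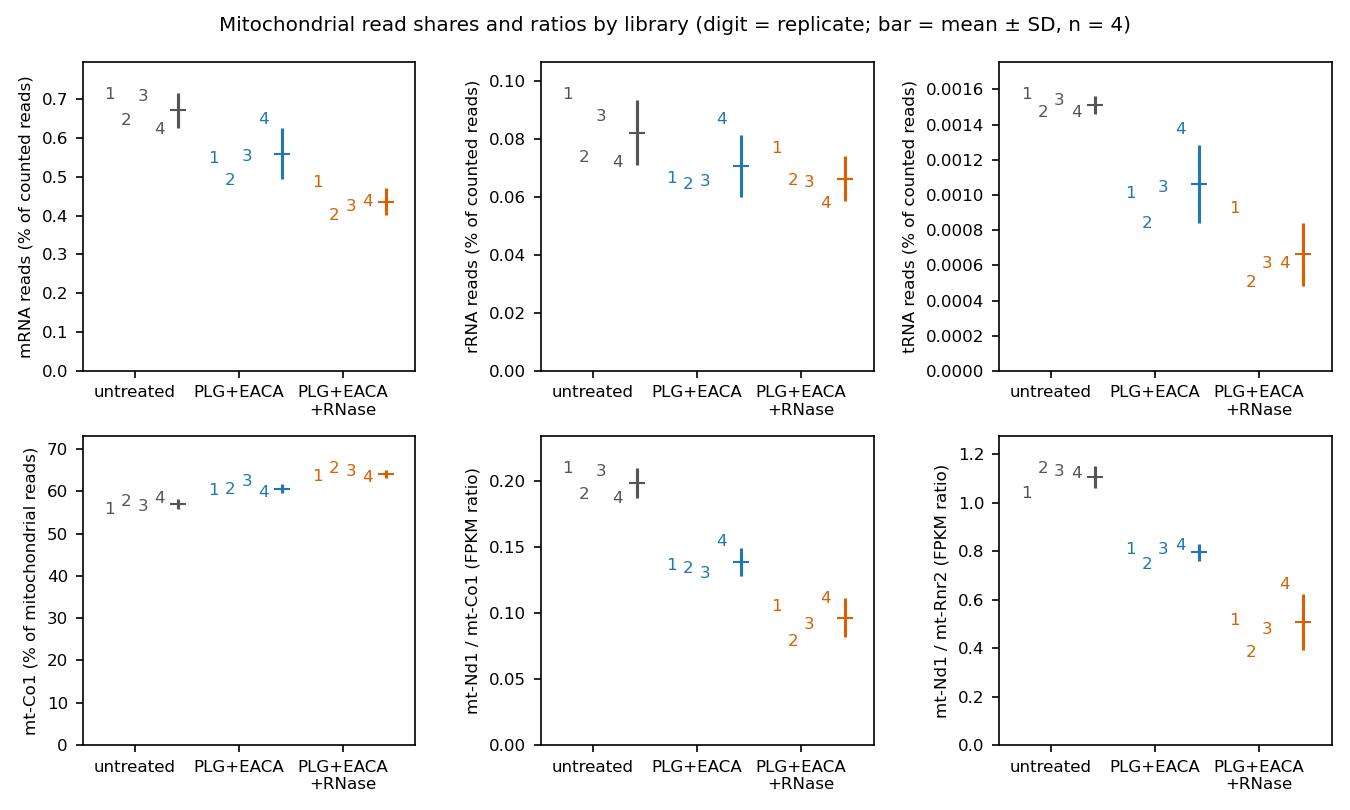
Upper panels show the percentage of counted reads on mitochondrial mRNAs, rRNAs and tRNAs; lower panels show mt-Co1 as a percentage of chrM reads and the FPKM ratios of mt-Nd1 to mt-Co1 and to mt-Rnr2. Digits are libraries (replicate number) and bars are mean ± SD (n = 4). For mRNA, PLG+EACA+RNase libraries lie below all others; for rRNA the groups overlap; for tRNA untreated libraries lie above all treated ones, and in the lower panels no groups overlap.

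The make-up of the counted mitochondrial reads also differed between groups, in ratios that do not depend on library scaling. mt-Co1 held 55.6%, 57.7%, 56.5% and 58.4% of chrM reads in untreated cells, 60.1%, 60.4%, 62.3% and 59.8% in PLG+EACA, and 63.4%, 65.3%, 64.7% and 63.2% in PLG+EACA+RNase. No 2 groups overlapped, and the share was lowest in untreated cells. mt-Co1 was picked out for this after its values were seen. Its level is uncertain for the shared part of the gene, as are the levels of the mRNAs from mt-Co2 to mt-Nd4l. The share is therefore one of counted reads and is not taken as a share of the RNA in the cells.

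mt-Nd1, a membrane-arm subunit of complex I and the first mRNA after the rRNAs, was lower relative to mt-Co1 in the treated groups. The ratio of mt-Nd1 to mt-Co1 in FPKM was 0.209, 0.19, 0.207 and 0.187 in untreated libraries, 0.136, 0.134, 0.13 and 0.154 in PLG+EACA, and 0.105, 0.078, 0.0909 and 0.111 in PLG+EACA+RNase, with no overlap between any 2 groups. The ratio of mt-Nd1 to its upstream neighbour mt-Rnr2 had means of 1.11 ± 0.0442, 0.795 ± 0.035 and 0.509 ± 0.116, again without overlap. Removal of rRNA before sequencing would change that ratio, and its part was not tested, so the ratio is not taken as one of levels in the cells. mt-Nd2 to mt-Co1 (0.0857, 0.0643 and 0.0403 on average) and mt-Cytb to mt-Co1 (0.174, 0.145 and 0.123) were ordered in the same way without overlap. These ratios were also chosen after values were seen and share mt-Co1 and mt-Nd1 between them.

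Each member was next compared between groups with limma on log2(FPKM + 0.5), fitted over the 11165 genes that reached 1 FPKM in 4 or more of the 12 libraries, at a Benjamini-Hochberg adjusted p under 0.05. Of the 33 members, 21 passed this filter: 11 mRNAs, 8 tRNAs and both rRNAs. mt-Nd4l, mt-Atp8 and 10 tRNAs did not. Those tRNAs (mt-Tv, mt-Tl1, mt-Tq, mt-Tm, mt-Tw, mt-Ta, mt-Tg, mt-Tr, mt-Te and mt-Tt) had 0 to 2 reads in each library, below the 3 reads that a count of 0 allows. Log2 fold changes are on the log2(FPKM + 0.5) scale, which understates the change of low members.

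In PLG+EACA against untreated cells, 7 of the 21 tested members were lower: the complex I mRNAs mt-Nd1, mt-Nd2, mt-Nd4 and mt-Nd5, the complex III mRNA mt-Cytb, the complex IV mRNA mt-Co2 and the proline tRNA mt-Tp. Among all genes tested 53.4% were lower, a larger share than among the members, and the median log2 fold change was −0.38 over the members against −0.26 over all genes. No member was higher by limma, at an adjusted p or an unadjusted p under 0.05, nor by limma voom on recovered reads; of all genes 14.9% were higher. With libraries scaled by median of ratios, which moves the median of all genes to −0.01, 1 member (mt-Nd1) was lower against 26.4% of all genes. Without PLG+EACA replicate 4 the count was 12. mt-Co2 did not pass without untreated replicate 3 (adjusted p = 0.0619) or PLG+EACA replicate 2 (adjusted p = 0.0588).

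In PLG+EACA+RNase against untreated cells, 16 of 21 were lower: all 11 tested mRNAs, 4 of 8 tRNAs and 1 of 2 rRNAs. Among all genes 48.4% were lower, and the medians were −0.93 over the members and −0.20 over all genes. By class the median was −1.40 for tRNAs and −0.17 for rRNAs. No member was higher here either, by limma at an adjusted or an unadjusted p or by limma voom, against 16% of all genes. Under median-of-ratios scaling 13 members were lower against 26.4% of all genes.

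In PLG+EACA+RNase against PLG+EACA, where the labelled treatments differ in the RNases alone, 10 of 21 were lower: 6 mRNAs (mt-Nd1, mt-Nd2, mt-Nd4, mt-Nd5, mt-Nd6 and mt-Cytb) and 4 tRNAs (mt-Tp, mt-Tn, mt-Ts2 and mt-Tl2). Among all genes 8.73% were lower in this comparison, and the medians were −0.57 over the members and 0.04 over all genes. Median-of-ratios scaling gave 12 against 11.4%. No member was higher by limma or limma voom, at an adjusted or an unadjusted p, against 12.1% of all genes. The count was 5 without PLG+EACA replicate 4, 5 without PLG+EACA+RNase replicate 2 and 5 without PLG+EACA+RNase replicate 3. The 3 comparisons share their groups in pairs, so their counts are not independent of each other.

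**Figure D4:**
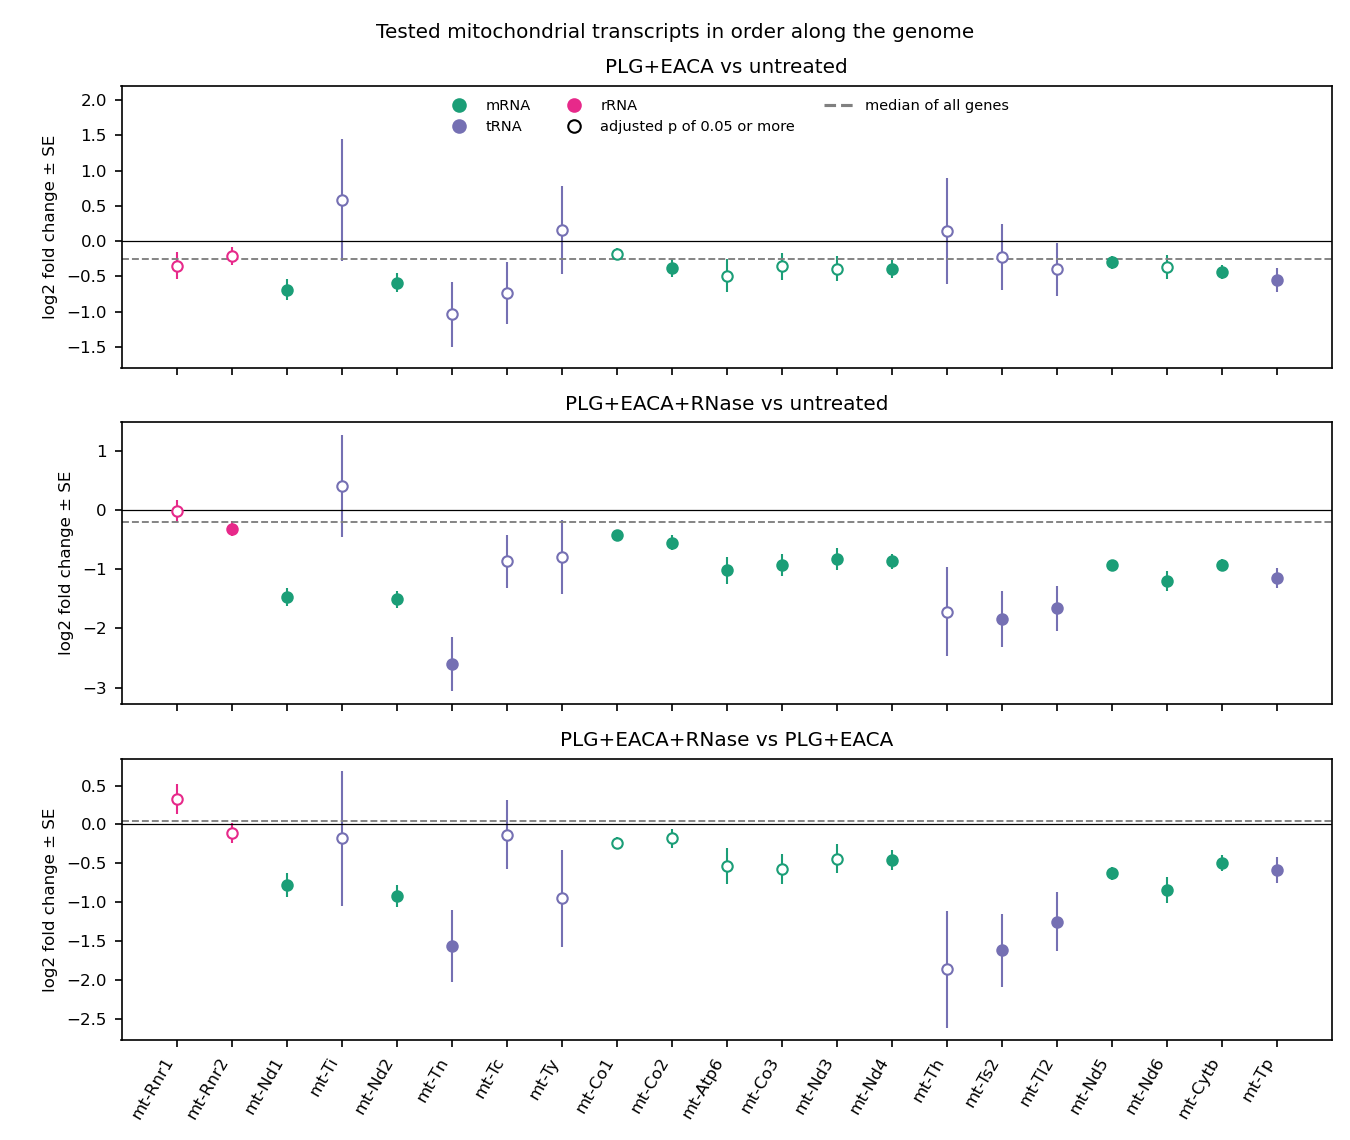
Log2 fold change (log2(FPKM + 0.5) scale, with SE) of the 21 tested members in each comparison, in genome order; filled points passed an adjusted p under 0.05 and the dashed line is the median of all genes tested. Against untreated cells, PLG+EACA+RNase is lower at all 11 mRNAs, most at mt-Nd1 and mt-Nd2 (−1.47 and −1.51).

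The rRNAs, which form the core of the small (mt-Rnr1, 12S) and large (mt-Rnr2, 16S) subunit of the mitochondrial ribosome, passed the test in 1 of their 6 comparisons. mt-Rnr1 (chrM:70-1024) had 33.3, 32.5, 33.4 and 26.2 FPKM in untreated libraries, 27.8, 26.2, 17.6 and 27.5 in PLG+EACA, and 27.2, 22.3, 34.1 and 43.2 in PLG+EACA+RNase. The groups overlapped, with the lowest value in PLG+EACA replicate 3 and the highest in PLG+EACA+RNase replicate 4. No comparison passed limma (log2 fold changes −0.35, −0.02 and 0.33; adjusted p 0.124, 0.928 and 0.238; first PLG+EACA and then PLG+EACA+RNase against untreated cells, last the treated groups against each other).

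mt-Rnr2 (chrM:1094-2675) had 582.1, 447, 534 and 438.6 FPKM in untreated libraries, 403.9, 389.9, 402.3 and 532.7 in PLG+EACA, and 469.9, 401.4, 390.7 and 339.8 in PLG+EACA+RNase. PLG+EACA replicate 4 stood above the rest of its group, and all groups overlapped. mt-Rnr2 was 1.25-fold lower in PLG+EACA+RNase than in untreated cells by limma (log2 fold change −0.32, adjusted p = 0.0422), a call lost under 11 of the alternatives. They include median-of-ratios scaling (−0.09, adjusted p = 0.612) and the fits without untreated replicate 1 or 3, PLG+EACA replicate 1 or 3, or PLG+EACA+RNase replicate 2, 3 or 4 (adjusted p from 0.0502 to 0.126). The other 2 comparisons did not pass (−0.21 with adjusted p = 0.154, and −0.11 with adjusted p = 0.576); the first did without PLG+EACA replicate 4 (−0.32, adjusted p = 0.0305). The FPKM ratio of mt-Rnr2 to mt-Rnr1 was 16 ± 1.6 in untreated cells, 17.9 ± 3.93 in PLG+EACA and 13.7 ± 4.85 in PLG+EACA+RNase, with overlap.

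Complex I, NADH dehydrogenase, passes electrons from NADH into the respiratory chain, and its mitochondrial subunits held the mRNAs that fell furthest. mt-Nd1 (chrM:2751-3707) had 608.2, 511.6, 602.7 and 490.3 FPKM in untreated libraries, 325.9, 290.1, 324.4 and 438.5 in PLG+EACA, and 241.4, 153.8, 185.9 and 225.2 in PLG+EACA+RNase. The 3 groups did not overlap, and PLG+EACA replicate 4 lay nearest to untreated cells. By limma mt-Nd1 was 1.62-fold lower in PLG+EACA than in untreated cells (log2 fold change −0.69, SE 0.152, adjusted p = 0.00153), 2.77-fold lower in PLG+EACA+RNase than in untreated cells (−1.47, adjusted p = 6.55e-06) and 1.71-fold lower in PLG+EACA+RNase than in PLG+EACA (−0.78, adjusted p = 0.00818). Under median-of-ratios scaling the first value was −0.41 with adjusted p = 0.0495.

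mt-Nd2 (chrM:3914-4951), the next complex I subunit along the genome, followed the same order. Its untreated libraries had 263.4, 226.7, 262.4 and 204.7 FPKM, PLG+EACA libraries 160, 134.7, 155 and 187.6, and PLG+EACA+RNase libraries 98.3, 67.1, 74.6 and 97.8. No groups overlapped. The log2 fold changes by limma were −0.59 (SE 0.139, adjusted p = 0.00252), −1.51 (adjusted p = 2.84e-06, or 2.85-fold lower) and −0.92 (adjusted p = 0.00364, or 1.89-fold lower) in the same order of comparisons; the first did not pass under median-of-ratios scaling (−0.31, adjusted p = 0.0972).

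mt-Nd5 (chrM:11742-13565), a proton-pumping subunit at the far end of the membrane arm, had 439.5, 407.5, 433.6 and 391.5 FPKM in untreated libraries, 350.3, 302, 322.8 and 386.6 in PLG+EACA, and 239.8, 198.7, 198.9 and 244.1 in PLG+EACA+RNase. Every PLG+EACA library lay between the other groups. By limma mt-Nd5 was 1.23-fold lower in PLG+EACA than in untreated cells (log2 fold change −0.30, SE 0.0892, adjusted p = 0.00998), a call lost under median-of-ratios scaling (−0.02, adjusted p = 0.868). It was 1.9-fold lower in PLG+EACA+RNase than in untreated cells (−0.93, adjusted p = 3.88e-06) and 1.54-fold lower than in PLG+EACA (−0.63, adjusted p = 0.00317).

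mt-Nd6 (chrM:13552-14070, minus strand), the complex I mRNA encoded on the opposite strand, overlaps the end of mt-Nd5 on the genome. It had 230.1, 205.8, 224.9 and 184.1 FPKM in untreated libraries, 189.1, 156.3, 143.5 and 166.3 in PLG+EACA, and 90, 74.4, 74.4 and 138.1 in PLG+EACA+RNase. PLG+EACA overlapped untreated cells through replicate 1, and PLG+EACA+RNase replicate 4 lay apart from the other 3 of its group yet below every PLG+EACA library. mt-Nd6 was 2.3-fold lower in PLG+EACA+RNase than in untreated cells (limma log2 fold change −1.20, SE 0.171, adjusted p = 7.09e-05) and 1.78-fold lower than in PLG+EACA (−0.84, adjusted p = 0.00974). For PLG+EACA against untreated cells the value was −0.37 (adjusted p = 0.0733, and 0.00626 without PLG+EACA+RNase replicate 4, which enters the shared estimate of the spread).

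mt-Nd6 and mt-Nd5 come from opposite strands, and the group ranges of their FPKM ratio overlapped. The ratio was 0.504 ± 0.0241 in untreated cells, 0.483 ± 0.0537 in PLG+EACA and 0.422 ± 0.0955 in PLG+EACA+RNase. Within PLG+EACA+RNase it was 0.375, 0.374, 0.374 and 0.566, the last in replicate 4. Over the other groups it ran from 0.43 to 0.54. PLG+EACA+RNase replicate 4 thus lay above every library of those groups, and the rest of PLG+EACA+RNase lay below every one. The library kit keeps strand per the labels, but no source used here says whether strand entered the counting. Without strand, reads of mt-Nd6 or of the opposite-strand tRNAs could not be told apart from reads of the precursor that runs through them on the other strand.

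Of the remaining complex I mRNAs, mt-Nd4 (chrM:10167-11544) had 138.1 ± 16.8, 104.5 ± 15.7 and 75.7 ± 11.9 FPKM in untreated, PLG+EACA and PLG+EACA+RNase cells. It passed limma in all 3 comparisons (adjusted p 0.0154, 0.00011 and 0.0289), with the largest change 1.83-fold lower in PLG+EACA+RNase than in untreated cells. The first call was lost under median-of-ratios scaling (log2 fold change −0.13, adjusted p = 0.463). The last was lost without the filter (adjusted p = 0.0626), with only the 2 groups fitted (adjusted p = 0.0674), without PLG+EACA replicate 1 or 4 and without PLG+EACA+RNase replicate 2 or 3 (adjusted p from 0.052 to 0.0822). mt-Nd3, with means of 1.93, 1.32 and 0.846 FPKM, passed only against untreated cells in PLG+EACA+RNase (log2 fold change −0.83, adjusted p = 0.00173); without untreated replicate 1 it also passed in PLG+EACA (−0.52, adjusted p = 0.0262).

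mt-Cytb (chrM:14145-15288) encodes cytochrome b, the one complex III subunit of the mitochondrial genome. It had 535.3, 467.9, 515.1 and 427.9 FPKM in untreated libraries, 364.7, 316.3, 336.6 and 419.6 in PLG+EACA, and 287.3, 219.5, 261.6 and 255.7 in PLG+EACA+RNase, with no overlap between groups. The limma log2 fold changes were −0.44 (SE 0.103, adjusted p = 0.00242), −0.93 (adjusted p = 1.12e-05, or 1.9-fold lower) and −0.49 (adjusted p = 0.0109, or 1.4-fold lower). The first was −0.16 with adjusted p = 0.25 under median-of-ratios scaling.

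Complex IV, cytochrome c oxidase, reduces oxygen, and its largest subunit mt-Co1 (chrM:5328-6872) had smaller fold changes than mt-Nd1, mt-Nd2 and mt-Nd5 in every comparison. mt-Co1 had 2909, 2693, 2912 and 2626 FPKM in untreated libraries, 2396, 2165, 2493 and 2847 in PLG+EACA, and 2305, 1971, 2045 and 2029 in PLG+EACA+RNase. PLG+EACA+RNase lay below untreated cells in every library, and PLG+EACA overlapped both. mt-Co1 was 1.34-fold lower in PLG+EACA+RNase than in untreated cells (limma log2 fold change −0.42, SE 0.0797, adjusted p = 0.000641), but −0.18 with adjusted p = 0.111 under median-of-ratios scaling. The other comparisons gave −0.18 (adjusted p = 0.0683; 0.10 under median-of-ratios scaling) and −0.24 (adjusted p = 0.0503; 0.044 under median-of-ratios scaling). Without PLG+EACA replicate 4, mt-Co1 passed in PLG+EACA against untreated cells (−0.25, adjusted p = 0.00919). Between the treated groups it passed without PLG+EACA replicate 2 (adjusted p = 0.0233) or PLG+EACA+RNase replicate 1 (adjusted p = 0.0389).

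Of the 6 mRNAs that lie wholly in the stretch matched on chromosome 1, mt-Atp8 and mt-Nd4l were not tested. The 4 that were tested (mt-Co2, mt-Atp6, mt-Co3 and mt-Nd3) were lower in PLG+EACA+RNase than in untreated cells. Of all genes 48.4% were lower in this comparison, and their median log2 fold change was −0.20. mt-Co2, mt-Atp6 and mt-Co3 were 1.47-fold, 2.03-fold and 1.9-fold lower by limma (adjusted p 0.0022, 0.00201 and 0.00102), mt-Co2 not under median-of-ratios scaling. By limma without that scaling, their chromosome 1 copies moved in the same direction. Gm28661 (the copy of mt-Co2) changed by −0.70 with adjusted p = 0.00129. Gm10925 (mt-Atp6) changed by −0.62 with adjusted p = 0.00691 and Gm28437 (mt-Co3) by −0.74 with adjusted p = 0.000251. Gm29216, the copy of part of mt-Co1, had −0.33 (adjusted p = 0.211). A gene and its copy are not independent measurements, since their reads cannot be separated by sequence.

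Among the tRNAs, mt-Tp was the only one with more than 22 reads in any library. It had 181.3, 168.6, 192.5 and 177.7 FPKM in untreated libraries, 113.2, 104, 118.7 and 160.2 in PLG+EACA, and 117.1, 65.5, 78.4 and 71.7 in PLG+EACA+RNase, resting on 68 to 264 reads. Untreated cells lay above both treated groups in every library, while the treated groups overlapped through PLG+EACA+RNase replicate 1. By limma mt-Tp was 1.47-fold lower in PLG+EACA than in untreated cells (log2 fold change −0.55, SE 0.167, adjusted p = 0.0108; lost under median-of-ratios scaling). It was 2.21-fold lower in PLG+EACA+RNase than in untreated cells (−1.15, adjusted p = 8.74e-05) and 1.51-fold lower than in PLG+EACA (−0.59, adjusted p = 0.0293).

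**Figure D5:**
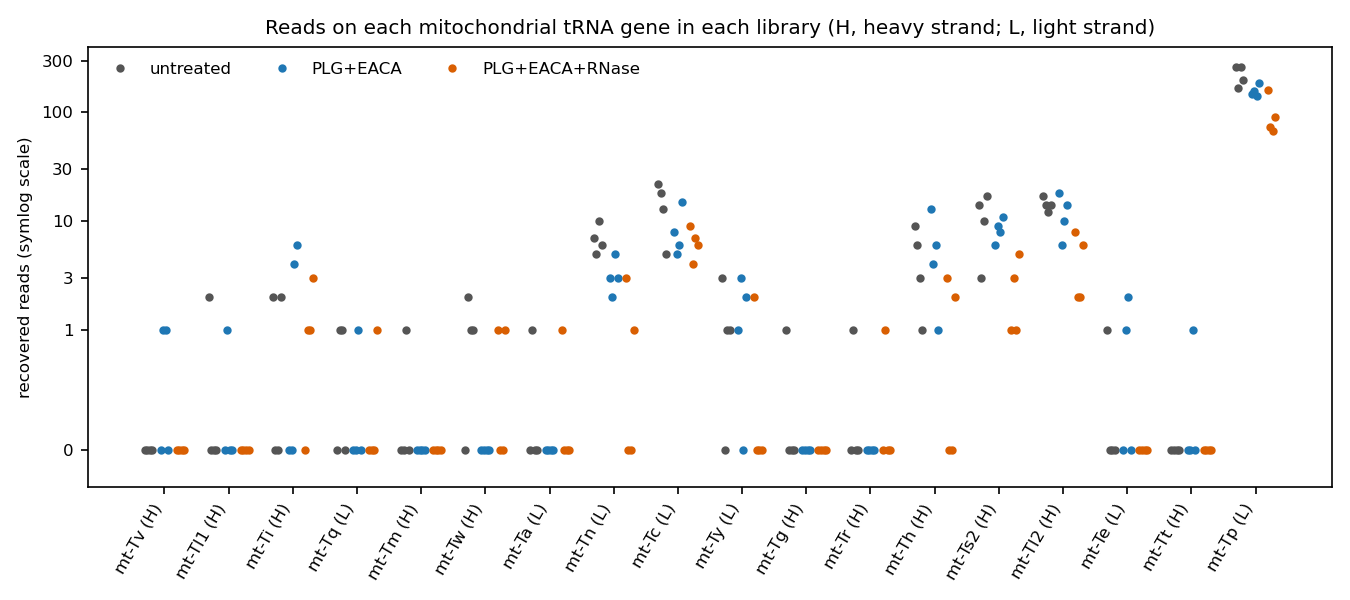
Recovered reads (linear near 0, log above 1) on each of the 18 mitochondrial tRNAs in genome order; points are libraries, 4 per group, and H or L gives the strand. mt-Tp has 68 to 264 reads in each library; the others have at most 22.

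mt-Tn, which brings asparagine to the ribosome and lies on the opposite strand beside the origin of light-strand replication, had 7, 5, 10 and 6 reads in untreated libraries, 3, 2, 5 and 3 in PLG+EACA, and 3, 0, 0 and 1 in PLG+EACA+RNase. All PLG+EACA+RNase libraries lay below all untreated ones. mt-Tn fell by 2.60 on the log2 scale in PLG+EACA+RNase against untreated cells (limma, SE 0.463, adjusted p = 0.000385) and by 1.56 against PLG+EACA (adjusted p = 0.0349). In PLG+EACA against untreated cells the value was −1.04 (adjusted p = 0.0628); it passed without PLG+EACA replicate 3 (−1.27, adjusted p = 0.0396) and without PLG+EACA+RNase replicate 1, 2 or 3 (adjusted p from 0.0148 to 0.0488). With so few reads, the size of these changes depends on the 0.5 FPKM added before taking logs.

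mt-Ts2 and mt-Tl2 decode serine and leucine and sit next to each other ahead of mt-Nd5. mt-Ts2 had 14, 3, 10 and 17 reads in untreated libraries, 6, 9, 8 and 11 in PLG+EACA, and 1, 3, 1 and 5 in PLG+EACA+RNase. mt-Tl2 had 17, 14, 12 and 14 reads in untreated libraries, 18, 6, 10 and 14 in PLG+EACA, and 8, 2, 2 and 6 in PLG+EACA+RNase. PLG+EACA+RNase libraries had 1 to 8 reads of either; mt-Ts2 overlapped untreated cells but not PLG+EACA, and mt-Tl2 overlapped PLG+EACA but not untreated cells. By limma mt-Ts2 was 3.59-fold and mt-Tl2 3.15-fold lower than in untreated cells (adjusted p 0.00444 and 0.00223), and the values against PLG+EACA were −1.62 and −1.25 (adjusted p 0.0324 and 0.0373).

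mt-Tc (tRNA for cysteine, chrM:5192-5257, minus strand) passed in no comparison, with adjusted p of 0.154 in PLG+EACA and 0.102 in PLG+EACA+RNase against untreated cells. It had 22, 18, 13 and 5 reads in untreated libraries, 8, 5, 6 and 15 in PLG+EACA, and 9, 4, 7 and 6 in PLG+EACA+RNase, with overlap between all groups. Untreated replicate 4 was the lowest of its group, and without it mt-Tc passed against untreated cells in PLG+EACA (−1.13, adjusted p = 0.0261) and in PLG+EACA+RNase (−1.26, adjusted p = 0.0169); without PLG+EACA replicate 4 it passed in PLG+EACA (−1.08, adjusted p = 0.0394). mt-Ti, mt-Ty and mt-Th were tested and not called in any comparison. mt-Th, with 0 to 13 reads, passed in PLG+EACA+RNase against untreated cells without untreated replicate 4, PLG+EACA replicate 4, or PLG+EACA+RNase replicate 1 or 4 (adjusted p from 0.0295 to 0.0477).

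Between the treated groups, the tRNA calls were lost under several settings. All 4 were lost without the filter on low values (adjusted p from 0.0644 to 0.0798), mt-Tp, mt-Tn and mt-Tl2 with only the 2 groups fitted (adjusted p from 0.0851 to 0.0948), and mt-Tn, mt-Ts2 and mt-Tl2 with limma voom (adjusted p from 0.0591 to 0.0973). Those of mt-Tp, mt-Tn, mt-Ts2 and mt-Tl2 were each lost without PLG+EACA replicate 4, without PLG+EACA+RNase replicate 2 and without PLG+EACA+RNase replicate 3, with adjusted p for mt-Tp from 0.0743 to 0.0865. mt-Tn was also lost without PLG+EACA replicate 1 or 3 (adjusted p = 0.0616 and 0.0759), and mt-Ts2 without PLG+EACA replicate 2 or 3 or PLG+EACA+RNase replicate 1 (adjusted p from 0.0523 to 0.0812). mt-Tl2 was also lost without untreated replicate 1 or 4, or PLG+EACA replicate 1 or 3 (adjusted p from 0.0512 to 0.0897).

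Nuclear genes make and process these RNAs, and they were read from lists set out by role. Of 6 tested genes of mitochondrial transcription, 5 were lower in PLG+EACA and 5 in PLG+EACA+RNase than in untreated cells, where 53.4% and 48.4% of all genes were lower. Under median-of-ratios scaling 2 were lower in each, against 26.4% of all genes in either comparison, and 1 was higher in PLG+EACA. Polrmt, the mitochondrial RNA polymerase, went from 6.91 ± 0.533 FPKM in untreated cells to 3.75 ± 0.297 in PLG+EACA (limma log2 fold change −0.80, adjusted p = 2.55e-06) and 3.54 ± 0.292 in PLG+EACA+RNase (−0.88, adjusted p = 1.54e-06). Tfb2m, the factor that helps it open the promoter, went from 3.63 ± 0.404 to 2.37 ± 0.533 and 2.19 ± 0.168 (−0.54 and −0.62). None of the 6 passed between the treated groups by limma, at an adjusted or an unadjusted p. Of all genes, 12.1% were higher and 8.73% lower there at an adjusted p.

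Of 16 tested genes for processing, stability and decay of mitochondrial RNA, 12 were lower and 1 higher in PLG+EACA than in untreated cells. In PLG+EACA+RNase 10 were lower and 1 higher than in untreated cells. Of all genes, 53.4% and 48.4% were lower and 14.9% and 16% higher in these comparisons. With median-of-ratios scaling, the lower count was 9 in PLG+EACA and 6 in PLG+EACA+RNase, with 2 higher in each. Under that scaling 26.4% of all genes were lower in either comparison. Grsf1 and Dhx30, RNA-binding proteins of mitochondrial RNA granules, and Hsd17b10, a subunit of mitochondrial RNase P, were 1.46-fold to 1.51-fold lower in PLG+EACA. Elac2, which cuts the 3′ end of tRNAs, went from 6.55 ± 0.428 FPKM to 4.54 ± 0.167 in PLG+EACA+RNase (−0.48, adjusted p = 6.24e-05).

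Pnpt1, the interferon-inducible polynucleotide phosphorylase of the mitochondrial RNA degradosome, moved the other way. It had 4.78, 4.33, 4.79 and 4.17 FPKM in untreated libraries, 9.26, 9.71, 8.8 and 14 in PLG+EACA, and 6.63, 5.7, 5.54 and 7.87 in PLG+EACA+RNase, without overlap. Pnpt1 was 2.15-fold higher in PLG+EACA than in untreated cells (limma log2 fold change 1.10, adjusted p = 2.29e-05) and 1.57-fold lower in PLG+EACA+RNase than in PLG+EACA (−0.65, adjusted p = 0.0108). Between the treated groups, 3 of the 16 genes tested were higher in PLG+EACA+RNase, against 12.1% of all genes. Pnpt1 alone was lower, where 8.73% of all genes were. The 3 were Rexo2, which degrades short RNA remnants, Hsd17b10 and Fastkd3, by 0.20 to 0.32 on the log2 scale. Hsd17b10 did not pass under median-of-ratios scaling (adjusted p = 0.071).

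Genes that modify mitochondrial tRNAs and rRNAs were lower in 7 of 14 tested in PLG+EACA and in 7 of 14 in PLG+EACA+RNase, against untreated cells, near the shares of 53.4% and 48.4% over all genes. Another 1 gene was higher in PLG+EACA+RNase, against 16% of all genes. Median-of-ratios scaling left 5 lower with 1 higher in PLG+EACA, and 3 lower with 2 higher in PLG+EACA+RNase. Under that scaling 26.4% of all genes were lower in either comparison. Mrm1 and Mrm3, methyltransferases of the 16S rRNA, went from 5.29 to 2.62 and from 2.33 to 1.06 FPKM in PLG+EACA (−0.92 and −0.88). Of 15 tested mitochondrial aminoacyl-tRNA synthetases, which charge the tRNAs, 11 were lower in each treated group, against 53.4% and 48.4% of all genes. In PLG+EACA 1 was higher, against 14.9% of all genes. Under median-of-ratios scaling 7 were lower in each and 1 higher in each, where 26.4% of all genes were lower. Hars2 (histidine) was −0.62 in both and Cars2 (cysteine) −0.76 and −0.72. The mitochondrial ribosome proteins were lower in 58 of 74 tested in PLG+EACA and 58 of 74 in PLG+EACA+RNase, where 53.4% and 48.4% of all genes were lower. Under median-of-ratios scaling these counts were 29 and 34, with 4 higher in each, against 26.4% of all genes lower in either comparison.

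Between the treated groups none of the 74 ribosome genes passed an adjusted p by limma, where 12.1% of all genes were higher and 8.73% lower. At an unadjusted p under 0.05, 5 were higher and 5 lower, and their median was −0.01. Of 8 tested genes of mitochondrial DNA replication and nucleotide supply, 6 were lower and 1 higher in PLG+EACA, against 53.4% and 14.9% of all genes, and 5 were lower and 1 higher in PLG+EACA+RNase, against 48.4% and 16%. Median-of-ratios scaling gave 4 lower in PLG+EACA and 3 in PLG+EACA+RNase, with 1 higher in each. Under that scaling 26.4% of all genes were lower in either comparison. Cmpk2, a nucleotide kinase of mitochondria that interferon induces, was the one that rose, from a mean of 12 FPKM to 247.1 FPKM in PLG+EACA and 122.5 FPKM in PLG+EACA+RNase (4.30 and 3.21 on the log2 scale). It was 1.08 lower on that scale in PLG+EACA+RNase than in PLG+EACA. Polg, the mitochondrial DNA polymerase, was −0.50 and −0.51 in the treated groups against untreated cells.

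Some facts of the whole series touch these values. Recovered depth was 12940888 to 22677042 reads per library. A single nuclear noncoding RNA gene, Gm26917, took 11% ± 0.732, 12.4% ± 1.42 and 13.9% ± 0.923 of reads in the 3 groups; outside it the chrM share was 0.848%, 0.719% and 0.584%, so the order held without it. All 6 macrophage markers were present, with summed levels of 5159 to 5753 FPKM in untreated cells, 3927 to 5758 in PLG+EACA and 3924 to 4443 in PLG+EACA+RNase. Dendritic cell markers summed to 564.8 to 616.2, 420.4 to 554.8 and 515.3 to 567.5 FPKM in the same order, and neutrophil markers to 13.3 to 55.8, up to 67.8 and 23.3 to 56.5 FPKM. A mean of 1 FPKM or more was reached by all 6 macrophage markers, 3 of 6 dendritic cell markers and 4 of 8 neutrophil markers. Of 5 lymphocyte markers Cd3e and Ncr1 were below 0.1 FPKM in every library. The lymphocyte sum reached 0.494 FPKM at most and that of stroma and endothelium 16.6 FPKM. Mast cell and basophil markers summed to 0.178 to 1.04, 0.244 to 0.604 and 0.706 to 5.2 FPKM, higher in every PLG+EACA+RNase library than in PLG+EACA. The macrophage sum was lower in PLG+EACA+RNase than in untreated cells in every library, as was the mitochondrial mRNA share; the part of either marker list in the results was not tested. PLG+EACA replicate 4 stood apart from its group on the second principal component of all genes.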

How the data were processed

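Total RNA libraries of 12 samples, 4 in each of 3 groups taken from the labels, were compared. The deposited values were FPKM, made by the authors from reads counted per gene and given with 3 decimals and gene lengths; the submitters' processing notes list GRCm38.p6 as the build and, in no stated role, STAR 2.7.11a and cutadapt 4.5, featureCounts 2.0.6 and DESeq2 1.40.2, and FastQC 0.12.1. The handling of reads with several matches is not given in the sources used here.

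The FPKM steps gave whole reads per gene. In each library 98.9% to 99.9% of values up to 1000 reads lay within 0.1 of a whole number, and recovered depth was 12940888 to 22677042 reads. The largest error of a library total in simulated tables was 2.1e-05%. Intervals from reads would cover counting error only, so spreads between libraries are given.

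limma 3.58.1 (R 4.3.3) was fitted to log2(FPKM + 0.5) with all 3 groups and no block, with a trend in the prior variance, on genes of at least 1 FPKM in at least 4 libraries, with Benjamini-Hochberg adjustment over 11165 genes per comparison and a threshold of 0.05. Shares and ratios are given without a test. Alternatives were pseudocounts of 0.1 and 1, no filter, a filter of 10 recovered reads in 4 libraries, median-of-ratios scaling, scaling to reads outside chrM and Gm26917, a replicate block, only the 2 groups compared, leaving out each library and, added after seeing the data, limma voom on recovered reads. limma was also run on simulated data in which a small part of the genes changed, in PLG+EACA+RNase alone. In the real data many more genes differed, so that run cannot show how the calls depend on scaling. Shared sequence was counted over stretches of 50 bases in GENCODE M21 transcripts, and best matches were found with BLAST+ 2.17.0.

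Values in every library are given for the rRNAs, mt-Nd6 and the 4 tested mRNAs and tRNAs with the smallest p in each comparison; of each nuclear list, up to 4 genes per comparison with the smallest p past the threshold were eligible, and those named are examples. The members and lists were chosen with earlier results of these data known.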

Additional observations from a re-analysis of the deposited data

Results flagged for a closer look

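Of 81 sets of 4 libraries of 1 group, 5 had 1 library far from the other 3; by chance about 1 set in 20 would. mt-Rnr1 was low in untreated replicate 4 at 26.2 FPKM and in PLG+EACA replicate 3 at 17.6 FPKM. mt-Rnr2 was high in PLG+EACA replicate 4 at 532.7 FPKM, and the rRNA share of reads in that library, 0.0869%, was high in the same way; the 2 values are not independent, since mt-Rnr2 gives most rRNA reads. mt-Ty had 1.46 FPKM in PLG+EACA+RNase replicate 1, which is 2 reads, and no read in the rest of its group.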

How the results depend on the processing

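The direction of every called member held under all alternatives run. In PLG+EACA against untreated cells, 7 lower members became 1 under median-of-ratios scaling, while the share of all genes lower went from 53.4% to 26.4%. The count was 11 with limma voom (added after seeing the data) and 6 to 12 when 1 library was left out, 12 without PLG+EACA replicate 4. In PLG+EACA+RNase against untreated cells, 16 stayed between 13 and 17 under the other settings and between 15 and 18 when 1 library was left out. The share of all genes lower there was 48.4%, and 26.4% under median-of-ratios scaling. Between the treated groups, 10 became 5 without the filter, 6 with only the 2 groups compared, 8 with limma voom and 5 to 12 when 1 library was left out. Without the filter more members and genes were tested, and otherwise the cause was not tested. The share of all genes lower there was 8.73%, and 11.4% under median-of-ratios scaling. Shares of all genes under the remaining settings are not given. With Gm26917 outside the denominator, the chrM share was 0.848%, 0.719% and 0.584% in untreated, PLG+EACA and PLG+EACA+RNase cells, the mRNA share 0.754%, 0.637% and 0.506%, the rRNA share 0.0771% in PLG+EACA+RNase and the tRNA share 0.0017% in untreated cells, since a smaller denominator raises each share. Replicate numbers were not taken as pairs in the main fit: correlations of same-numbered deviations ran from −0.18 to 0.33. The highest was between replicate 4 of PLG+EACA and of PLG+EACA+RNase, and a factor these libraries share was not tested. With a replicate block the lower counts were 8, 16 and 12. The planned edgeR and DESeq2 fits were not run because the values are FPKM. Depth limits the tRNAs, most of which had few reads.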
